A study of Mus musculus with 8 samples.

Results

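Matrix metalloproteinases (MMPs), the ADAMTS and ADAMTS-like (ADAMTSL) proteins and the tissue inhibitors of metalloproteinases (TIMPs) were examined in SV-LECs with and without TGFβ1. SV-LECs are mouse lymphatic endothelial cells from mesenteric adventitia that were immortalized with SV40. The untreated group (4 libraries) and the TGFβ1 group (4 libraries, 10 ng/ml for 72 h) come from this 1 line, grown in DMEM with 10% serum. Polyadenylated RNA was sequenced from all 8 libraries. Genes were taken by symbol from the 55471 genes of the count table, which gave 51 genes: 23 MMP genes, 4 TIMP genes and 24 ADAMTS and ADAMTSL genes. The rule used names and no measured value. According to the study's Methods these are technical replicates, and p-values here therefore cover the spread between such samples only.

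MMPs are zinc-dependent proteases that cut collagens, proteoglycans and other parts of the extracellular matrix, and most are made as inactive proenzymes. TIMPs bind the active site of MMPs and of some ADAMTS enzymes, and TIMP3 is the main inhibitor of aggrecan-cleaving ADAMTS enzymes. ADAMTS proteases are secreted, carry thrombospondin repeats and act on proteoglycans, procollagens and other matrix proteins, whereas ADAMTSL proteins share the repeats and lack the protease domain. In lymphatic vessels the family is known for matrix turnover around growing vessels and for the processing of VEGF-C, in which ADAMTS3 acts together with CCBE1.

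Total counts were between 18952504 and 26386941 per library. Levels are given as CPM, counts scaled to a common library size after TMM normalization, and a floor of 3 counts was 0.113 to 0.162 CPM. Of the 10 lymphatic and pan-endothelial markers, 5 were at or near 0 counts and 5 had more. Of the latter 5, Tek was close to the edge of detection, at 12 to 18 counts untreated and 8 to 16 treated. Prox1, which specifies lymphatic identity, had 0 counts in the untreated and 0 to 2 in the TGFβ1-treated libraries, and Lyve1 had 0 to 3 and 0 counts. Of the 6 pan-endothelial markers, Pecam1 had at most 5 counts, Cdh5 at most 2 and Tie1 0. Kdr was at 11.6 CPM untreated and 22.1 CPM treated, Egfl7 at 5.83 and 4.79 CPM and Tek at 0.659 and 0.569 CPM. The lymphatic markers Flt4 (21.6 and 29.3 CPM) and Pdpn (342 and 313 CPM) were also present. The 6 fibroblast and mural markers were all tested, 3 were higher and 3 lower, and their summed level was 605 to 642 CPM in untreated and 273 to 300 CPM in TGFβ1-treated libraries. The lower ones were Dcn (312 and 83.0 CPM), Pdgfra (160 and 57.8 CPM) and Thy1 (89.2 and 42.4 CPM). The higher ones were Pdgfrb (44.7 and 69.3 CPM), Cspg4 (12.8 and 23.0 CPM) and Des (1.69 and 7.15 CPM). The 5 leukocyte markers summed to 6.12 to 8.30 CPM in untreated and 16.5 to 19.1 CPM in TGFβ1-treated libraries. Cd68 was at 6.96 and 15.9 CPM and Csf1r at 0.278 and 1.38 CPM, and both were called higher. Lyz2 had 1 to 3 and 10 to 13 counts, Itgam 0 and 0 to 3, and Ptprc 0 to 1 in every library. The 3 epithelial markers summed to 0.203 to 0.626 and 1.08 to 2.76 CPM, with none of the 3 at 0 throughout. The part of these markers in the results below was not tested. In such bulk libraries, fewer cells that express a gene and less RNA of it per cell cannot be told apart.

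Of the 51 genes, 37 had enough counts to be tested. TGFβ1 changed 32 of them at an FDR under 0.05 by edgeR's likelihood ratio test, beside 75.6% of all 13818 genes tested. 27 were higher with TGFβ1, where 37.6% of all genes were higher, and 5 were lower, where 38.0% of all genes were lower. A log2 fold change of at least 1 was reached by 14 genes upwards (10.9% of all genes) and by 2 downwards (6.56% of all genes). Mmp9, Adamts15 and Adamtsl2 are among the 27 and the 14. They had 4 to 16, 2 to 6 and 0 to 1 untreated counts and reached enough counts for the test only through the treated libraries. A high treated level was thus a condition for counting them. The 4 values of a group did not overlap those of the other group for 31 genes, against 69.8% of all genes. The median log2 fold change was 0.65 for the tested members and -0.01 for all genes. By family, 9 of 15 tested MMP genes were higher and 1 was lower, all 3 tested TIMP genes were higher, and of 19 tested ADAMTS and ADAMTSL genes 15 were higher and 4 lower. The median log2 fold changes were 0.29, 0.58 and 0.76, with Mmp9, Adamts15 and Adamtsl2 counted in them. Adamtsl2 at its lower bound still lies above the median of its family, so placing it there could not change these medians. For both directions together, 32 of 37 were called beside 75.6% of all genes, and nothing is read from this share.

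**Figure D1:**
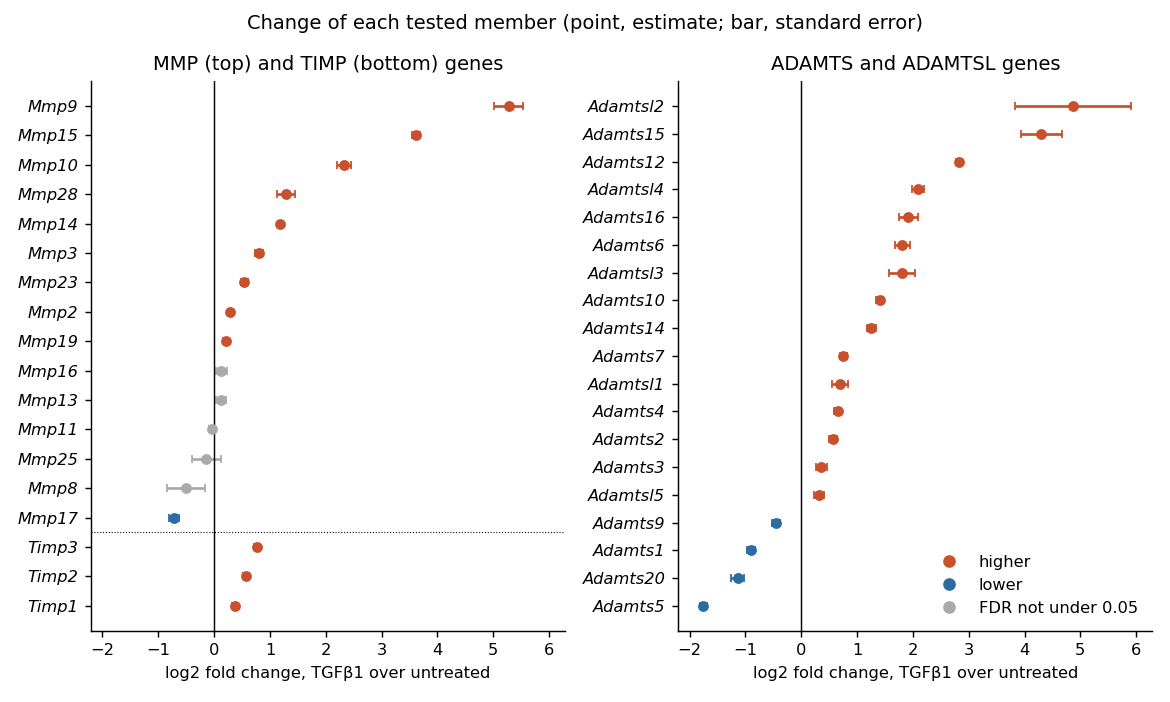
Log2 fold change of TGFβ1-treated over untreated SV-LECs on the horizontal axis for the 37 tested genes, with MMP and TIMP genes on the left and ADAMTS and ADAMTSL genes on the right. Points are edgeR's estimates, bars standard errors, and colours the call at an FDR of 0.05. Mmp9 (5.28) and Adamtsl2 (4.87) lie farthest to the right, and Adamts5 (-1.75) farthest to the left. The estimate for Adamtsl2, at 0 to 1 untreated count, depends on the prior count.

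Both gelatinases, which digest denatured collagen and basement membrane collagen IV, were higher with TGFβ1. Mmp9 (ENSMUSG00000017737) lies on chromosome 2 from 164940780 to 164955850 (plus strand, GRCm38). The untreated libraries held Mmp9 at 0.193, 0.601, 0.48 and 0.406 CPM and the TGFβ1-treated libraries at 17.3, 20.2, 14.1 and 16.3 CPM. The gene went from the edge of detection, with 4 to 16 counts per library, to 286 to 419 counts. Mmp9 was thus 40.4-fold higher with TGFβ1, at 16.9 ± 2.53 against 0.42 ± 0.172 CPM (SD, n = 4 each), and its log2 fold change was 5.28 (SE 0.259, FDR = 5.78e-159). In CPM, Mmp2 measured 279, 276, 277 and 268 without and 351, 334, 330 and 325 with TGFβ1. Here the groups did not overlap either, but the change was small against a high starting level. From 275 ± 4.48 CPM the mean went to 335 ± 11.4 CPM (SD, n = 4 each), which is 1.22-fold higher, with a log2 fold change of 0.29 (SE 0.0395, FDR = 1.51e-12).

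The membrane-type MMPs sit on the cell surface, and MMP14 (MT1-MMP) cuts fibrillar collagen and activates proMMP2. Without TGFβ1, Mmp14 was at 720, 712, 756 and 735 CPM, and with it at 1664, 1667, 1595 and 1673 CPM. Mmp14 was the most abundant MMP gene in both groups, also per length, at 500 ± 12.5 and 1098 ± 28 TPM (counts rescaled by exon length to a common total). On average Mmp14 was 2.26-fold higher (731 ± 19.2 CPM untreated, 1650 ± 36.7 CPM treated, SD, n = 4 each), with a log2 fold change of 1.17 (SE 0.0384, FDR = 9.40e-199). Mmp15 (ENSMUSG00000031790) lies on chromosome 8 from 95352268 to 95375080 (plus strand, GRCm38). Values of Mmp15 were 12.8, 10.6, 14 and 13.1 CPM in untreated and 141, 161, 162 and 153 CPM in treated libraries. Mmp15, which encodes MT2-MMP, another transmembrane enzyme, was low in every untreated library and high in every treated one. TGFβ1 raised Mmp15 12.2-fold, from 12.6 ± 1.45 to 154 ± 9.52 CPM (SD, n = 4 each), and the log2 fold change was 3.62 (SE 0.0751, likelihood ratio statistic 2271, with an FDR too small to represent). Mmp17, which encodes a GPI-anchored member, was the only tested MMP gene called lower, with 20.5 ± 0.822 CPM in untreated and 12.5 ± 1.35 CPM in TGFβ1-treated libraries (SD, n = 4 each). The change was -0.72 on the log2 scale (SE 0.0827, FDR = 1.11e-17). The 2 other tested membrane-type genes were not called, Mmp16 with a log2 fold change of 0.13 (95% interval -0.07 to 0.33, FDR = 0.247) and Mmp25 with -0.14 (-0.64 to 0.36, FDR = 0.626).

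Stromelysins have broad substrates and activate other proMMPs, and both were higher. Mmp10 was at 2.51, 2.7, 3.1 and 3.35 CPM in the 4 untreated libraries and at 14.4, 15.9, 13.5 and 14.4 CPM in the 4 TGFβ1-treated ones. No untreated library came near the treated ones. The means were 2.91 ± 0.38 and 14.6 ± 0.994 CPM (SD, n = 4 each), a 5-fold rise with a log2 fold change of 2.32 (SE 0.12, FDR = 4.15e-92). Mmp3 (stromelysin-1) had a higher starting level and a smaller change, with 22.4 ± 2.67 CPM in untreated and 39 ± 0.252 CPM in TGFβ1-treated libraries (SD, n = 4 each). The change was 0.80 on the log2 scale (SE 0.0734, FDR = 4.38e-27). Mmp3 and Mmp10 share 3.76% and 3.94% of their stretches of 75 bases on the same strand, and reads there could count for either gene.

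The tested collagenases, which cleave the triple helix of fibrillar collagens, were not called. Mmp13 had a log2 fold change of 0.13 (95% interval -0.06 to 0.31, FDR = 0.225), and its levels were 28.2 to 39.9 CPM and 33.4 to 41 CPM. Mmp8, known from neutrophils, had 10 to 14 counts in untreated and 6 to 10 in treated libraries (log2 fold change -0.50, 95% interval -1.16 to 0.16, FDR = 0.160). Neither interval excludes a change of modest size, and Mmp8 was too shallow for a narrow one. Among the MMPs with a furin site, Mmp11 was at 51.3, 47.4, 49.3 and 52.9 CPM untreated and at 49.9, 51.2, 46 and 47.7 CPM with TGFβ1. The groups of Mmp11 (stromelysin-3) overlapped, with a log2 fold change of -0.04 (95% interval -0.15 to 0.07, FDR = 0.486). The untreated libraries held Mmp28 at 1.98, 1.73, 1.7 and 1.37 CPM and the TGFβ1-treated libraries at 4.11, 3.55, 4.77 and 4.23 CPM. For Mmp28, which encodes epilysin, the groups were apart. Mmp28 was thus 2.46-fold higher with TGFβ1, at 4.17 ± 0.5 against 1.69 ± 0.249 CPM (SD, n = 4 each), and its log2 fold change was 1.29 (SE 0.158, FDR = 1.44e-16).

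Mmp23, which encodes an atypical MMP with a transmembrane prodomain, and Mmp19, which encodes an enzyme that acts on basement membrane proteins, made up the rest of the abundant MMP genes. In CPM, Mmp23 measured 55.4, 56.9, 53.1 and 49.3 without and 75.5, 72.9, 77.2 and 85.8 with TGFβ1. From 53.7 ± 3.27 CPM the mean went to 77.9 ± 5.59 CPM (SD, n = 4 each), which is 1.45-fold higher, with a log2 fold change of 0.54 (SE 0.0628, FDR = 5.25e-17). Without TGFβ1, Mmp19 was at 43.6, 41, 44.2 and 43 CPM, and with it at 52.3, 51.5, 48.9 and 47.4 CPM. The difference in Mmp19 was the smallest among the called members, although its groups did not overlap. On average Mmp19 was 1.17-fold higher (42.9 ± 1.37 CPM untreated, 50.02 ± 2.25 CPM treated, SD, n = 4 each), with a log2 fold change of 0.22 (SE 0.0534, FDR = 6.96e-05). The antisense gene Tmem198b covers 22.3% of the exon bases of Mmp19 and was itself at 21.7 and 34.3 CPM. Whether the counting used strand is not given in the sources used here, so reads from these 2 genes cannot be told apart there.

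**Figure D2:**
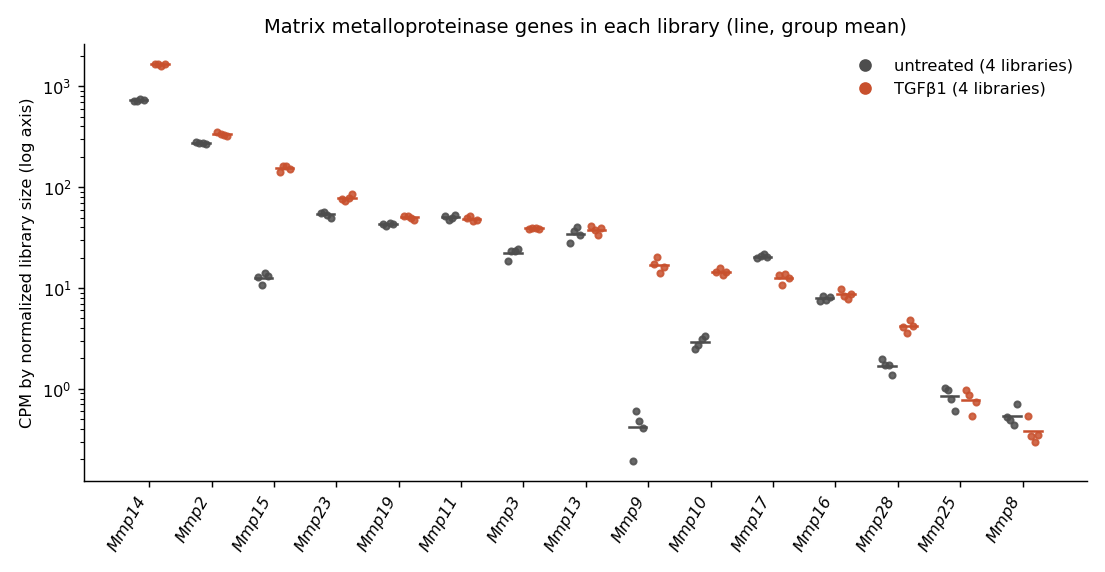
Levels of the 15 tested MMP genes in each library, as CPM by normalized library size on a log axis. Points are single libraries, lines are group means, and genes are ordered by their mean with TGFβ1. Mmp14 is at the top in both groups, and Mmp9 and Mmp15 show the widest gaps between grey (untreated) and red (TGFβ1) points.

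10 of the 23 MMP genes lie side by side on chromosome 9 (7272514 to 7699585, GRCm38), in the order Mmp13, Mmp12, Mmp1b, Mmp3, Mmp1a, Mmp10, Mmp8, Mmp27, Mmp20 and Mmp7, with no other protein-coding gene between them. 4 of the 10 were tested, and Mmp3 and Mmp10 were higher. Their start regions share letters that the rule did not use. In the 300 bases around the annotated start (250 before, 50 after, RefSeq, GRCm38.p6), available for 36 of the 51 genes, the AP-1 motif TGANTCA was searched on both strands. A gene with more than 1 window was counted if any of them held the motif. It was found for 8 of the 36 genes, all of them in this cluster, and for 8.97% of 27025 genes with a window. The TATA motif TATAAA was found for 9 of the 10 genes of the cluster and for 15.7% of genes. Its place varied. In Mmp8 it was on the other strand 3 bases before the start, in Mmp12 it lay 4 bases after a second annotated start, and in Mmp3 it began 7 bases before the start. All 8 genes with the AP-1 motif also had the TATA motif, and of the 8 other MMP genes with a window 0 had the first and 1 the second. The 100 bases before the start are shown for the 3 most abundant genes of the cluster, for 2 of its genes without reads and, for contrast, for Mmp14, all on the plus strand, with both motifs in capitals.
Mmp10 (chr9:7502242-7502341): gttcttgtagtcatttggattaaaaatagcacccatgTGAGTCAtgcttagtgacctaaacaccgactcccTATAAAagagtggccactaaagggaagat
Mmp3 (chr9:7445722-7445821): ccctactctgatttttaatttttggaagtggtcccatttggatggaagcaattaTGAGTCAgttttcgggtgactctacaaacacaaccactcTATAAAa
Mmp13 (chr9:7272414-7272513): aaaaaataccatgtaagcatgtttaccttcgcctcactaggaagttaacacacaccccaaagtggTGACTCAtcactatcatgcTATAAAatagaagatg
Mmp1a (chr9:7464041-7464140): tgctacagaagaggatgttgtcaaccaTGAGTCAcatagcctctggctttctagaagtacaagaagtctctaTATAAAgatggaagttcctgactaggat
Mmp7 (chr9:7691990-7692089): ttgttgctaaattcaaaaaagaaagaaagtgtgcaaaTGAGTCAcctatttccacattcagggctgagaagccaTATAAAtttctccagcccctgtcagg
Mmp14 (chr14:54431498-54431597): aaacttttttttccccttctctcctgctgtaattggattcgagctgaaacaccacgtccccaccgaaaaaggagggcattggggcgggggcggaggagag
The AP-1 letters begin 63 bases before the start in Mmp10, 46 in Mmp3, 35 in Mmp13, 73 in Mmp1a and 63 in Mmp7. These 5 genes carry the same pair of motifs. Mmp10 and Mmp3 were higher, Mmp13 was not called, and Mmp1a and Mmp7 had 0 counts in all 8 libraries. A link between the motifs and these levels was not tested. The Smad-related letters CAGACA were found for 8 of the 36 genes, against 23.6% of genes. The GC-rich motif GGGCGG was found for 12 of 14 ADAMTS and ADAMTSL genes and 7 of 18 MMP genes with a window, against 38.2% of genes. A match is a description of letters and not of a factor bound there.

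All 3 TIMP genes that could be tested were higher with TGFβ1, each by less than 1 on the log2 scale. Values of Timp1 were 425, 471, 447 and 417 CPM in untreated and 582, 592, 568 and 527 CPM in treated libraries. TGFβ1 raised Timp1 1.29-fold, from 440 ± 24.1 to 567 ± 28.3 CPM (SD, n = 4 each), and the log2 fold change was 0.37 (SE 0.0507, FDR = 1.79e-12). Timp2 was at 697, 694, 783 and 776 CPM in the 4 untreated libraries and at 1089, 1157, 1073 and 1079 CPM in the 4 TGFβ1-treated ones. Both sets of libraries were apart for both genes. The means were 737 ± 48.7 and 1100 ± 38.6 CPM (SD, n = 4 each), a 1.49-fold rise with a log2 fold change of 0.58 (SE 0.0507, FDR = 5.10e-29). The untreated libraries held Timp3 at 3362, 3630, 3358 and 2950 CPM and the TGFβ1-treated libraries at 5720, 5690, 5670 and 5693 CPM. Timp3, whose product binds to the matrix, had the most reads of all 51 genes and the largest change of the TIMP genes. Timp3 was thus 1.71-fold higher with TGFβ1, at 5693 ± 20.6 against 3325 ± 281 CPM (SD, n = 4 each), and its log2 fold change was 0.78 (SE 0.0549, FDR = 7.50e-44). The antisense gene Syn3 covers 21.3% of the exon bases of Timp3 but was at 2.56 and 5.09 CPM. Timp4 had 1 count in 1 treated library and 0 in the other 7.

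Per union exon length (888 bases for Timp1, 8144 for Timp3), Timp1 led in untreated and Timp3 in treated cells. In CPM, without length scaling, Timp3 was above Timp1 in both groups, at 3325 against 440 untreated and 5693 against 567 treated. The order in untreated cells thus depends on the length scaling. Timp1 made up 45.3% ± 0.539 (SD, n = 4) of the summed TIMP level in untreated and 39.4% ± 1.07 in treated libraries, and Timp3 37.3% ± 1.66 and 43.2% ± 1.03. Timp2 stood at 17.4% in both. The summed TPM of the TIMP genes was 4458 ± 233 in untreated and 6429 ± 199 in TGFβ1-treated libraries (SD, n = 4 each), and that of the MMP genes was 1191 ± 22.3 and 2077 ± 46.7. The libraries of the 2 groups did not overlap for either sum. The ratio of the TIMP to the MMP sum was 3.55 to 3.98 in untreated libraries and 2.98 to 3.16 in treated libraries. The inhibitor transcripts exceeded the MMP transcripts in every library, and the ratio was lower in every treated library although both sums were higher. These sums are RNA levels and give no activity.

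**Figure D3:**
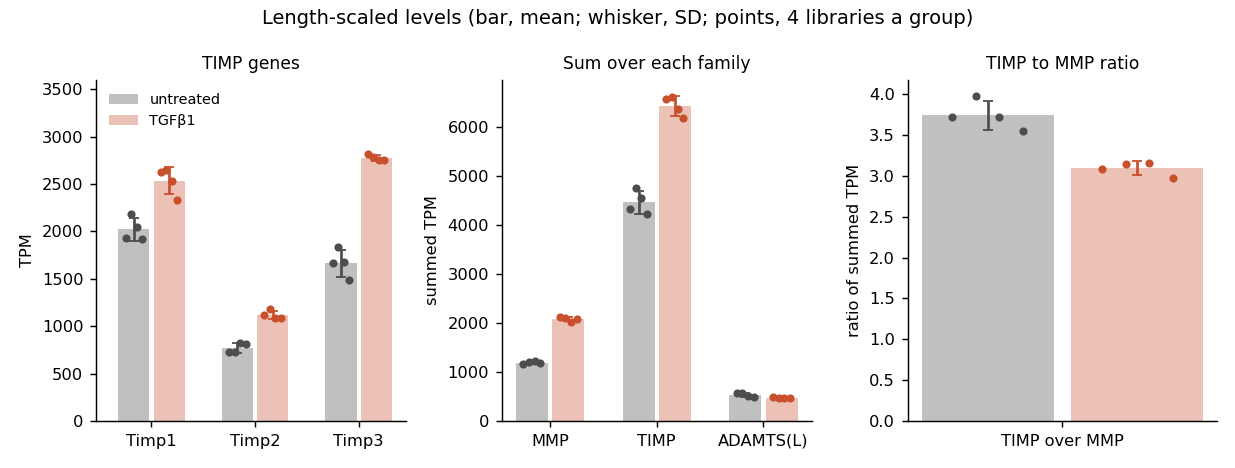
Length-scaled levels in TPM of Timp1, Timp2 and Timp3 (left), of the sum over each family (middle), and the ratio of the TIMP sum to the MMP sum (right). Bars are means of 4 libraries, whiskers SDs and points single libraries. The ratio is 3.74 in untreated and 3.10 in TGFβ1-treated cells, and the ADAMTS and ADAMTSL sums of the 2 groups touch.

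The ADAMTS genes moved in both directions, and the lower ones included the most abundant. ADAMTS1, 4, 5, 8, 9, 15 and 20 are proteoglycanases, which cut aggrecan and versican, and of the 6 that were tested 4 were lower and 2 higher. Adamts5 (ENSMUSG00000022894) lies on chromosome 16 from 85856173 to 85901828 (minus strand, GRCm38). In CPM, Adamts5 measured 619, 641, 584 and 536 without and 182, 156, 185 and 183 with TGFβ1. All untreated libraries were above all treated ones by a wide margin. From 595 ± 45.9 CPM the mean went to 176 ± 13.7 CPM (SD, n = 4 each), which is 3.38-fold lower, with a log2 fold change of -1.75 (SE 0.0648, FDR = 7.72e-152). Without TGFβ1, Adamts1 was at 179, 175, 160 and 142 CPM, and with it at 90.8, 84.6, 90.9 and 86 CPM. On average Adamts1 was 1.86-fold lower (164 ± 16.8 CPM untreated, 88.1 ± 3.28 CPM treated, SD, n = 4 each), with a log2 fold change of -0.90 (SE 0.0665, FDR = 2.19e-40). Adamts20 started lower and fell too. Values of Adamts20 were 21.6, 22, 17.8 and 17 CPM in untreated and 10.4, 8.57, 7.97 and 8.77 CPM in treated libraries. TGFβ1 lowered Adamts20 2.2-fold, from 19.6 ± 2.57 to 8.92 ± 1.03 CPM (SD, n = 4 each), and the log2 fold change was -1.14 (SE 0.111, FDR = 3.74e-24). Adamts9 was at 79.8, 87.3, 72.9 and 75.5 CPM in the 4 untreated libraries and at 62.4, 55.2, 58.6 and 54.7 CPM in the 4 TGFβ1-treated ones. Adamts9 was thus the least changed of the 4 lower genes. The means were 78.9 ± 6.3 and 57.7 ± 3.56 CPM (SD, n = 4 each), a 1.37-fold drop with a log2 fold change of -0.45 (SE 0.065, FDR = 8.79e-12). Adamts1 and Adamts5 are neighbours on chromosome 16 (85793827 to 85901828, minus strand), 53059 bases apart with no protein-coding gene between, and both were lower.

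The 2 other tested proteoglycanase genes went the opposite way. The untreated libraries held Adamts4 at 47.2, 47.2, 40.9 and 43 CPM and the TGFβ1-treated libraries at 75.5, 66.9, 68 and 70.4 CPM. Adamts4 was thus 1.57-fold higher with TGFβ1, at 70.2 ± 3.84 against 44.6 ± 3.15 CPM (SD, n = 4 each), and its log2 fold change was 0.65 (SE 0.0615, FDR = 1.25e-25). Adamts15 was at the edge of detection without TGFβ1, at 2 to 6 counts, and had 68 to 128 counts with it. In CPM, Adamts15 measured 0.289, 0.188, 0.0873 and 0.254 without and 4.11, 3.31, 3.69 and 4.97 with TGFβ1. From 0.204 ± 0.0886 CPM the mean went to 4.02 ± 0.712 CPM (SD, n = 4 each), which is 19.7-fold higher, with a log2 fold change of 4.30 (SE 0.369, FDR = 1.85e-56). Adamts8, the neighbour of Adamts15 on chromosome 9 at a distance of 20109 bases, had 0 counts in untreated and 0 to 3 in treated libraries.

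ADAMTS7 and ADAMTS12 cleave cartilage oligomeric matrix protein (COMP), and both genes were higher. Adamts12 (ENSMUSG00000047497) lies on chromosome 15 from 11064790 to 11349231 (plus strand, GRCm38). Without TGFβ1, Adamts12 was at 19.9, 21, 19.6 and 20.3 CPM, and with it at 148, 142, 138 and 144 CPM. The 4 libraries of each group lay close together. On average Adamts12 was 7.09-fold higher (20.2 ± 0.593 CPM untreated, 143 ± 4.36 CPM treated, SD, n = 4 each), with a log2 fold change of 2.82 (SE 0.0538, likelihood ratio statistic 2879, with an FDR too small to represent). Values of Adamts7 were 41.6, 36.7, 37.5 and 45.4 CPM in untreated and 70.3, 66.6, 64.2 and 70.4 CPM in treated libraries. TGFβ1 raised Adamts7 1.68-fold, from 40.3 ± 4.02 to 67.9 ± 3.01 CPM (SD, n = 4 each), and the log2 fold change was 0.76 (SE 0.0678, FDR = 5.46e-28).

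The procollagen N-proteinases ADAMTS2, ADAMTS3 and ADAMTS14, which trim the amino end of fibrillar procollagens, were all higher. Adamts14 was at 9.88, 9.84, 9.26 and 11.7 CPM in the 4 untreated libraries and at 23.8, 23.6, 23.8 and 25.4 CPM in the 4 TGFβ1-treated ones. The means were 10.2 ± 1.07 and 24.1 ± 0.863 CPM (SD, n = 4 each), a 2.37-fold rise with a log2 fold change of 1.25 (SE 0.08, FDR = 1.96e-55). Adamts2 had 33.5 ± 3.84 CPM in untreated and 49.98 ± 2.07 CPM in TGFβ1-treated libraries (SD, n = 4 each), with a log2 fold change of 0.57. Adamts3, which encodes the VEGF-C-processing enzyme, had 10.6 ± 0.688 CPM in untreated and 13.7 ± 1.65 CPM in TGFβ1-treated libraries (SD, n = 4 each), with a log2 fold change of 0.36 and an FDR of 0.000401. No treated library was below an untreated one in any of the 3. Among the ADAMTS enzymes of other or less defined roles, Adamts10 and Adamts6 encode a related pair tied to fibrillin microfibrils. The untreated libraries held Adamts10 at 58.7, 51.3, 45.6 and 50.6 CPM and the TGFβ1-treated libraries at 137, 143, 133 and 133 CPM. Adamts10 was thus 2.65-fold higher with TGFβ1, at 137 ± 4.99 against 51.5 ± 5.38 CPM (SD, n = 4 each), and its log2 fold change was 1.41 (SE 0.0646, FDR = 8.35e-102). In CPM, Adamts6 measured 4.96, 7.14, 4.45 and 4.97 without and 20.6, 20.1, 16.5 and 18.9 with TGFβ1. Both genes separated fully by group, and so did Adamts16. From 5.38 ± 1.19 CPM the mean went to 19 ± 1.79 CPM (SD, n = 4 each), which is 3.54-fold higher, with a log2 fold change of 1.81 (SE 0.131, FDR = 8.63e-43). Without TGFβ1, Adamts16 was at 2.65, 2.55, 2.4 and 2.18 CPM, and with it at 11.7, 8.03, 7.23 and 10.1 CPM. On average Adamts16 was 3.79-fold higher (2.45 ± 0.205 CPM untreated, 9.27 ± 2.02 CPM treated, SD, n = 4 each), with a log2 fold change of 1.92 (SE 0.168, FDR = 4.22e-30).

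All 5 ADAMTSL genes were higher. Their products include microfibril-associated glycoproteins, and ADAMTSL2 and ADAMTSL4 bind fibrillin-1. Values of Adamtsl4 were 4.58, 3.87, 4.54 and 3.85 CPM in untreated and 17.5, 16.8, 19.8 and 17.7 CPM in treated libraries. TGFβ1 raised Adamtsl4 4.27-fold, from 4.21 ± 0.403 to 18 ± 1.29 CPM (SD, n = 4 each), and the log2 fold change was 2.10 (SE 0.106, FDR = 1.18e-93). Adamtsl2 had 0 to 1 count in the untreated and 13 to 24 counts in the treated libraries, at least 5.92-fold higher against the group's floor of 3 counts per library (FDR = 6.81e-19). Adamtsl3 was at 0.771, 0.563, 0.742 and 0.609 CPM in the 4 untreated libraries and at 2.81, 2.53, 1.62 and 2.45 CPM in the 4 TGFβ1-treated ones. The treated libraries of Adamtsl3 were all above the untreated ones. The means were 0.671 ± 0.101 and 2.35 ± 0.511 CPM (SD, n = 4 each), a 3.51-fold rise with a log2 fold change of 1.81 (SE 0.239, FDR = 3.05e-15). Adamtsl1 and Adamtsl5 changed less, by log2 fold changes of 0.70 and 0.32, and for Adamtsl5 the groups overlapped although the FDR was 0.000525.

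**Figure D4:**
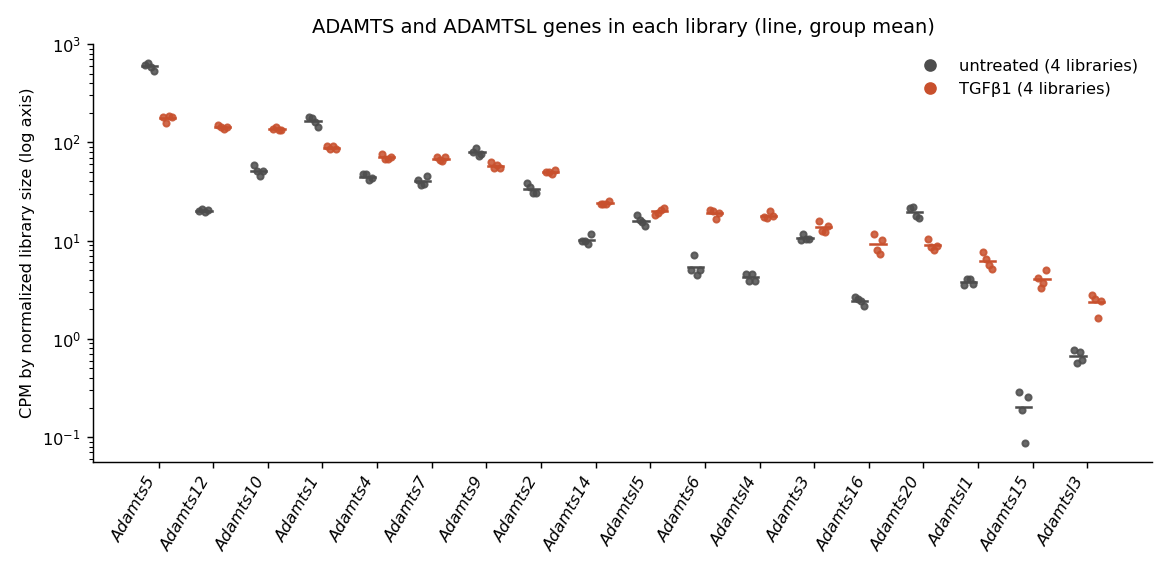
Levels of 18 of the 19 tested ADAMTS and ADAMTSL genes in each library, as CPM by normalized library size on a log axis. Adamtsl2 is left out because untreated libraries were at 0 counts. Points are single libraries and lines group means. For Adamts5, Adamts1, Adamts9 and Adamts20 the grey untreated points lie above the red TGFβ1 points, and for Adamts12 and Adamts15 far below.

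The makeup of the summed ADAMTS and ADAMTSL level differed more between the groups than the sum did. The sum was 492 to 569 TPM in untreated and 459 to 493 TPM in treated libraries. The 4 lower genes together were at 381 ± 32.2 and 150 ± 7.92 TPM, and the 15 higher genes at 151 ± 8.58 and 322 ± 11.0 TPM (SD, n = 4 each). These 2 groups of genes were formed by their calls, so their directions are given by that choice. Adamts5 alone was 42.2% of the sum in untreated and 13.7% in treated cells, and Adamts1 23.7% and 13.97%. Adamts12 was 1.42% and 11.0%, and Adamts10 4.78% and 13.9%. By role, the proteoglycanases were at 419 ± 34.3 TPM untreated and 209 ± 10.7 TPM treated, or 78.6% and 44.3% of the sum. The COMP-cleaving enzymes were at 33.7 and 94.9 TPM, the N-proteinases at 30.6 and 49.7 TPM and the ADAMTSL genes at 19.4 and 37.2 TPM. Among the MMP genes, the membrane type was at 527 and 1224 TPM, which is 44.2% and 58.9% of the MMP sum. The stromelysins were at 57.6 and 120 TPM and the gelatinases at 333 and 414 TPM, while the collagenases stood at 53.9 and 57.6 TPM.

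**Figure D5:**
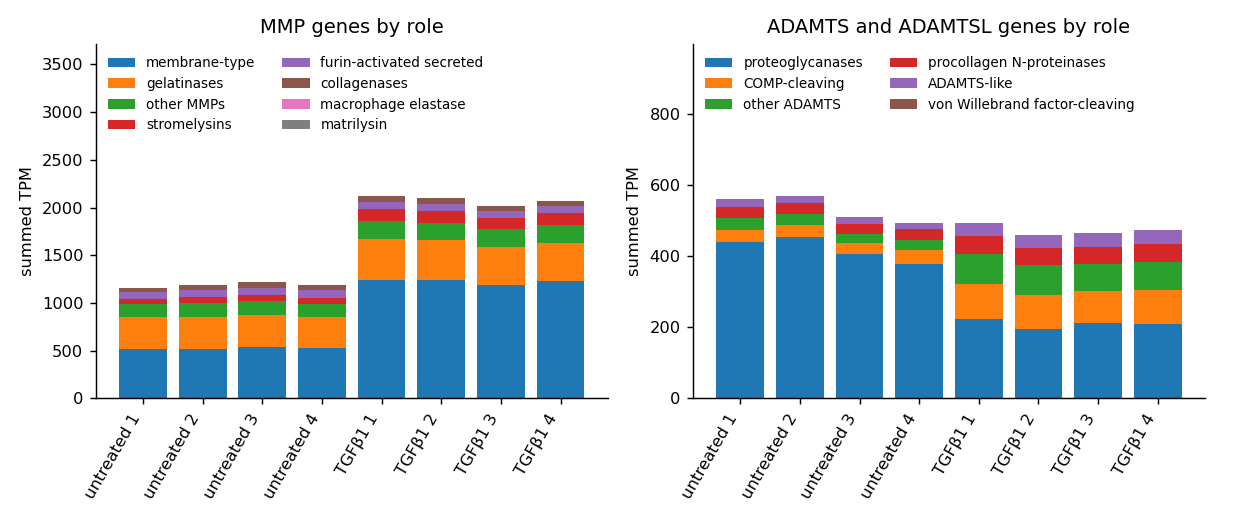
Summed TPM of the MMP genes (left) and of the ADAMTS and ADAMTSL genes (right) in each of the 8 libraries, stacked by role. The membrane-type part of the MMP bar is larger in every TGFβ1 library, and the proteoglycanase part of the ADAMTS bar is smaller, at 209 against 419 TPM.

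Genes that act with these proteases were taken from a list of 46 activators, inhibitors, surface partners, related proteases and substrates. 37 were tested, 27 were higher, 7 were lower and 3 were not called, with a median log2 fold change of 0.81, beside 37.6% and 38.0% of all genes called higher and lower. The list was chosen with earlier results of these data known, so nothing is read from these counts against those shares. Some of the higher genes, Acan among them, had enough counts for the test only through the treated libraries. Of 7 tested proprotein convertase and plasminogen activator genes, which turn proenzymes active, 5 were higher and 2 lower. Plat, which encodes tissue plasminogen activator, was at 43.5 ± 2.76 and 108 ± 8.83 CPM (log2 fold change 1.32), and Plaur, which encodes the urokinase receptor, at 15.1 ± 1.98 and 36.7 ± 5.75 CPM (1.28). Pcsk5, a convertase gene, was lower (log2 fold change -0.68), and Plg, the plasminogen gene, had 0 counts throughout. Of 4 tested genes for inhibitors other than TIMPs, 2 were higher and 2 lower. Spock3, which encodes a testican that inhibits membrane-type MMP activation, was at 20.3 ± 3.16 and 3.05 ± 0.689 CPM (-2.74). Papln, which encodes papilin, was called higher at an FDR of 0.0394 (0.59), and this call was lost with DESeq2, in 4 of the 8 fits without 1 library and under several other settings.

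Of 6 genes for surface docking and clearance, 5 were higher. Itgb3, Cd44 and Lrp1 had log2 fold changes of 2.10, 1.99 and 1.74. CD44 docks MMP9 and LRP1 takes up MMPs, ADAMTS5 and TIMP3. Of 10 tested related metzincin genes, 7 were higher and 2 lower, with Adam8 at 2.95 and the procollagen C-proteinase genes Bmp1 and Tll1 at 1.95 and 1.92. Of 10 tested cofactor and substrate genes, 8 were higher and 1 lower. Acan, the aggrecan gene, had 0 to 2 counts untreated and 101 to 144 treated, at least 41.0-fold higher against the floor. Vcan, the versican gene, was at 62.8 ± 5.49 and 730 ± 69.4 CPM (3.54). In the same libraries the proteoglycanase genes summed to 419 TPM untreated and 209 TPM treated. Of the 6 tested proteoglycanase genes, 4 were lower and 2, Adamts4 and Adamts15, were higher. A link to Acan and Vcan was not tested. Vegfc was at 1.21 ± 0.119 and 15.8 ± 2.78 CPM (3.69). Ccbe1, chosen after its value was seen because its product acts with ADAMTS3, was at 0.588 ± 0.233 and 1.85 ± 0.269 CPM (1.61, FDR = 1.09e-11).

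14 members had too few counts for the test. Mmp1a, Mmp7, Mmp20 and Adamts19 had 0 counts in all 8 libraries, which allows up to 3 counts in each, or 0.113 to 0.162 CPM. The other 10 had at most 14 counts in any library. Mmp1b had 0 to 1 count untreated and 3 to 9 treated, Mmp12 (macrophage elastase) 0 to 2 and 2 to 7, and Mmp27 6 to 14 and 3 to 7. Tested without the filter on low counts, edgeR's FDR was 2.10e-06 for Mmp1b, 0.0156 for Mmp12, 0.00310 for Mmp27 and 0.0216 for Adamts8. Mmp12 and Mmp1b overlap by 1261 bases on opposite strands, and Mmp1b shares 6.55% of its 75-base stretches with Mmp1a, so their few reads are uncertain.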

How the data were processed

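RNA of 4 untreated and 4 TGFβ1-treated SV-LEC samples was sequenced with a stranded poly(A) kit as single-end reads of 75 bases. The authors mapped these to GRCm38 and deposited whole-number counts for each gene, not normalized. The submitters' processing notes name bcl2fastq 2.20.0.422, STAR 2.7.3a and featureCounts 1.5.1, and the annotation release and use of strand are not given in the sources used here. Depth was 18952504 to 26386941 counts per library, and the floor of 3 counts covers counting error only.

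Groups came from the sample labels. Counts of all genes kept by filterByExpr (13818 genes) were normalized by TMM and compared with glmFit and glmLRT in edgeR 4.0.16 (R 4.3.3), and FDRs are Benjamini-Hochberg values over all genes tested. Standard errors came from the fitted model, and 95% intervals are the estimate with 1.96 SE on either side. TPM used the union exon length of GENCODE M21, which matched 55230 of 55471 genes. Promoter windows came from RefSeq (GRCm38.p6). Symbol rules chose the members, and the members, roles, partner genes and markers were chosen with earlier results of these data known. Values per library are given for called members with an absolute log2 fold change of at least 1, for every TIMP gene and for members with a mean of at least 50 CPM in a group. Adamtsl2 and Timp4, which had few or no untreated counts, are given by counts instead. The means of Mmp3, Mmp17, Adamts2 and Adamts3 were added after they were seen. Partner genes were named by the largest absolute log2 fold change, up to 3 per subgroup, and 1 gene under this rule is not reported here. The study's Methods name edgeR's likelihood ratio test and not the filter or the normalization. The fit was tested on simulated data. There the share of false calls was above the FDR threshold with this test, the quasi-likelihood test and DESeq2, and was largest with this test. Far fewer genes were changed in the simulation than were called in these data, so it does not give the share of false calls here. Alternatives were the quasi-likelihood test, DESeq2 1.42.0, other scalings, filters, prior count and threshold, a replicate block, other length scalings and each library left out in turn.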

Additional observations from a re-analysis of the deposited data

Results flagged for a closer look

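In 5 of the 74 groups of 4 libraries formed by the 37 tested genes, 1 library lay far from the other 3, and chance alone puts about 1 in 20 groups there. TGFβ1 replicate 3 had Mmp14 at 1595 CPM, below 1664 to 1673 in the others. Untreated replicate 1 had Mmp3 at 18.4 CPM, below 23.3 to 24.3. TGFβ1 replicate 2 had Adamts5 at 156 CPM, below 182 to 185. Untreated replicate 2 had Adamts3 at 11.6 CPM, above 10.1 to 10.3. TGFβ1 replicate 4 had Adamts14 at 25.4 CPM, above 23.6 to 23.8. The 5 values belong to 5 different libraries. Leaving out any 1 library kept the log2 fold changes between 1.16 and 1.19 for Mmp14, 0.72 and 0.84 for Mmp3, -1.80 and -1.70 for Adamts5, 0.29 and 0.41 for Adamts3, and 1.21 and 1.32 for Adamts14.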

How the results depend on the processing

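All 37 tested members kept their direction and their side of the threshold under every alternative that tested them, 626 fits over 17 settings. 2 of these settings were not full tests. The prior count of 2 leaves every FDR as it is, and the FDR threshold of 0.01 leaves every log2 fold change as it is. The filter of 1 CPM in 4 libraries left 34 of them. The count of MMP genes called lower was 1, but 2 without a filter on low counts and 1 to 2 when each library was left out in turn. The added gene was Mmp27, which then passed the filter, at 6 to 14 counts untreated and 3 to 7 treated, and it was added without untreated replicate 4 and without TGFβ1 replicate 1, 2, 3 or 4. With each library left out in turn the other counts were 9 to 9 MMP genes higher, 3 to 3 TIMP genes higher, 15 to 15 ADAMTS and ADAMTSL genes higher and 4 to 4 lower, and 26 to 27 partner genes higher and 7 to 8 lower, since Papln lost its call without untreated replicate 2 or 4 or TGFβ1 replicate 1 or 4 and Col1a2 was called lower without untreated replicate 4. The summed levels moved with the length used. TGFβ1 over untreated was 1.74 for the MMP genes, 1.88 by coding exon length and 1.95 as CPM without length scaling. For the TIMP genes it was 1.44, 1.61 and 1.63, and for the ADAMTS and ADAMTSL genes 0.886, 0.738 and 0.830. The cause was not tested. The labels do not say whether the replicate numbers pair the samples. Deviations of same-numbered libraries correlated between -0.193 and -0.034, and those of differently numbered ones between -0.227 and 0.250. With so few libraries these values cannot decide whether samples were paired. With the replicate block 9 MMP genes were higher and 1 lower, 3 TIMP genes were higher, and 15 ADAMTS and ADAMTSL genes were higher and 4 lower, while over all genes 5075 were higher and 5077 lower. Members with fewer than about 20 counts per library cannot show small changes at this depth, and separate cultures were not compared.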
